A study of Mus musculus with 56 samples.

Results

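p300 is a histone acetyltransferase that transcription factors bring to promoters and enhancers, where it acetylates histones and other proteins. PU.1 is the ETS-family factor that sets macrophage identity, and it opens most macrophage enhancers together with C/EBP, AP-1 and RUNX factors. The regions described here are the p300-bound regions of mouse bone marrow-derived macrophages (BMDMs) at which no PU.1 peak was listed. p300 peaks of the 4 p300 samples that overlapped by at least 1 bp were merged into 81230 regions, and 40457 of these held a p300 peak in all 4 samples. Of these, 7087 regions (17.5%) overlapped no PU.1 peak in any of the 4 PU.1 samples. PU.1 was present in all 4 samples at 23655 regions (58.5%), called PU.1-bound below, and in 1 to 3 samples at 9715 regions.

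BMDMs of C57BL/6 mice of 8–12 weeks were differentiated for 6 days in medium with L929 supernatant. Chromatin was crosslinked with DSG and formaldehyde, and 2 biological replicates were made for each of 28 combinations of antibody and treatment. In the 1 hr experiment, p300, PU.1, H3K27Ac, HDAC1, HDAC2, HDAC3, RNAPII-pS5 and RNAPII-pS2 were measured in untreated cells (ctrl) and after IL-4 at 20 ng/ml for 1 hr. In the LPS experiment, p65, RNAPII-pS5 and RNAPII-pS2 were measured without treatment (ctrl/ctrl), after IL-4 for 24 hr (IL-4 PT/ctrl), after LPS at 100 ng/ml for 1 hr (ctrl/LPS), and after LPS that followed the IL-4 pretreatment (IL-4 PT/LPS). p300 and PU.1 were thus measured only in untreated cells and after 1 hr of IL-4, and the occupancy of PU.1 at these regions under LPS or after 24 hr of IL-4 was not measured. IL-4 signals through STAT6, LPS activates NF-κB including its subunit p65, H3K27Ac marks active promoters and enhancers, HDACs remove acetyl groups, and the pS5 and pS2 forms of RNA polymerase II mark initiation and elongation.

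The number of peaks per sample, which stands in for the unknown depth, ran from 8440 to 71027. The first untreated p300 replicate stood apart with 44787 peaks, against 66710 to 69360 in the other p300 samples. In the 1 hr experiment, peaks of RNAPII-pS2 were named after the other treatment than the one in the sample labels, and the labels were followed. Had the peak names been followed, higher and lower would change places for every RNAPII-pS2 difference at 1 hr. The labels give the same antibody catalogue number for HDAC3 as for H3K27Ac. RNAPII-pS5 peaks lay within 2000 bp of the transcription start site (TSS) of 6 of 6 macrophage marker genes in all 4 samples of the 1 hr experiment, and of 1 of 16 marker genes of T cells, B cells, erythroid cells, neutrophils and fibroblasts (Klf1). H3K27Ac peaks lay as near in all 4 samples for 2 of the 6 macrophage markers (Emr1 and Fcgr1) and for Klf1. This distance was chosen after the values were seen, since the promoter annotation alone found 1 of the 6 macrophage markers (Cd68).

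The following windows of 200 bp around region centres (mm10, plus strand) show promoters of the set, with STAT6 matches (TTC and GAA with any 4 bases between them), GGGCGG in either orientation and CCAAT boxes in capitals. They are the promoters of the integrin Itgb8 and of Plekhf1, both with a STAT6 match and a high mean p300 score, and of Ddit3, which had the highest mean p300 score of all promoters without PU.1.

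Itgb8 (chr12:119238973-119239172): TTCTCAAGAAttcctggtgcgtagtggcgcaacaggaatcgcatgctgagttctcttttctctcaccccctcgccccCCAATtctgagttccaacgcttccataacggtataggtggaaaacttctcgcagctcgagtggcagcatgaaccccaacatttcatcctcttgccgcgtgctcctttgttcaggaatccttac
Plekhf1 (chr7:38227967-38228166): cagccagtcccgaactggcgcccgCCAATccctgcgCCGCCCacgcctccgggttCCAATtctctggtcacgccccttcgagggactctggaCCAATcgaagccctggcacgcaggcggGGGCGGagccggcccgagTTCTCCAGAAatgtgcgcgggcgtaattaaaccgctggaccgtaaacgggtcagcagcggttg
Ddit3 (chr10:127290607-127290806): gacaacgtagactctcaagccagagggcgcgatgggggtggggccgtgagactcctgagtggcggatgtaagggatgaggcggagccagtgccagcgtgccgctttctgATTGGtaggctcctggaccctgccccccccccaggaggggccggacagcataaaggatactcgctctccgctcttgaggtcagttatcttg

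The next windows of the same length lay outside promoters and were picked among regions that hold the letters TGANTCA of AP-1 sites, in capitals. Zmiz1, Hspb7 and BC022687 name the nearest genes of 3 of the strongest p300 regions outside promoters, Dnmbp and Hs2st1 those of introns where p65 was listed with IL-4 PT/LPS but not with LPS alone, and Map3k7cl and Ptgdr those of intergenic regions with the opposite pattern.

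Zmiz1 (chr14:25378916-25379115): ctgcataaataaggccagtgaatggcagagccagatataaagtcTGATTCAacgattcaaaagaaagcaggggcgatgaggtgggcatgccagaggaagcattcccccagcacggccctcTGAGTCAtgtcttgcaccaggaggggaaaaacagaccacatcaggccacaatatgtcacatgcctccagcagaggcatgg
Hspb7 (chr4:141425802-141426001): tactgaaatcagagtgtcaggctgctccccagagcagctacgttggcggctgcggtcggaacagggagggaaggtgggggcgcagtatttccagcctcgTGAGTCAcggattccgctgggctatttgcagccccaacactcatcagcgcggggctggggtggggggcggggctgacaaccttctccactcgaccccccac
BC022687 (chr12:112795870-112796069): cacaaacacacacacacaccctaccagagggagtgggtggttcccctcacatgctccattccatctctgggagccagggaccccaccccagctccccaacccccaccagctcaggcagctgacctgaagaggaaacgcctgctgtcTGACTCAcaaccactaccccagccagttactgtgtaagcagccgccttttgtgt
Dnmbp (chr19:43896471-43896670): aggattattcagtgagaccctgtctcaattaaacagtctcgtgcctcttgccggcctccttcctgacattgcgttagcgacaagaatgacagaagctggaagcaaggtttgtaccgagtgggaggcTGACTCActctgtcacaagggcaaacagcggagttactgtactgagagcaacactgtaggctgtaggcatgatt
Hs2st1 (chr3:144449176-144449375): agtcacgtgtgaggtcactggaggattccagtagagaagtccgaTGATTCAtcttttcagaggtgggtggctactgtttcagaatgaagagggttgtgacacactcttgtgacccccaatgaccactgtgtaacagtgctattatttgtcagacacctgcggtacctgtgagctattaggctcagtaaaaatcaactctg
Map3k7cl (chr16:87603273-87603472): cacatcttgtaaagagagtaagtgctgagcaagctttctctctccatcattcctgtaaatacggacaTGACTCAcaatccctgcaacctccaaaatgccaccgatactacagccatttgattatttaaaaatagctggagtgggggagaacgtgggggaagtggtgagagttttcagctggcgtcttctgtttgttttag
Ptgdr (chr14:44827837-44828036): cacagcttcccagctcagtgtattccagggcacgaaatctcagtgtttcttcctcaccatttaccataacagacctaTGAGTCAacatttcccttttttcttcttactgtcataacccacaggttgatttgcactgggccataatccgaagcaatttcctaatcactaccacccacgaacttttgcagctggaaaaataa

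The regions without PU.1 were weak p300 sites. The p300 peak score, a −log10 of a p- or q-value, had a median over the 7087 regions of 7.23 and 21.3 in the untreated samples and of 16.4 and 16.9 after 1 hr of IL-4. At PU.1-bound regions the medians were 18.3 and 56.5, then 53.7 and 54.6. The mean score of a region over the 4 samples ran from 3.48 to 160, with a median of 15.9 against 47.2 at PU.1-bound regions. These scores and the absence of PU.1 chose the regions, so they are given as a description and not as a finding. When all 40457 regions were split into 4 equal bins by mean p300 score, regions without PU.1 made up 36.9% of the lowest bin, 21.2% and 10.2% of the middle bins, and 1.81% (183 regions) of the highest.

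The edge of the rule was narrow in base pairs and graded in score. The nearest PU.1 peak lay at a median distance of 6111 bp, and 476 regions had one within 500 bp. Within 20 bp of a PU.1 peak lay 15 regions, with a median p300 score of 13.3, and 12 regions were left out of the set for an overlap of at most 20 bp, with a median of 16.2. Regions with PU.1 in a single sample numbered 3025, and their PU.1 score had a median of 4.96 against 22.6 where all 4 samples had a peak. On the p300 side, 5895 regions without PU.1 had a p300 peak in only 3 samples, and in 86.4% of them the missing sample was the first untreated replicate.

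Regions without PU.1 lay at promoters more often than PU.1-bound regions. HOMER had annotated 1634 of the 7087 (23.1%) as promoter-TSS, against 6.81% of PU.1-bound regions and 11.5% of all 40457. Introns held 2553 (36%) and intergenic sequence another 2553 (36%), against 47.3% and 42.1% of PU.1-bound regions. The rest lay in exons (94), at transcription termination sites (90), in 5' UTRs (85), in 3' UTRs (58) and in non-coding genes (18), and 2 had no annotation. Within 1000 bp of a TSS lay 28.0%, against 8.91%. The share at promoters was higher without PU.1 in each bin of p300 score, at 26.0% against 11.2% in the lowest and 12.6% against 4.18% in the highest. It ran from 22.9% to 23.3% with the annotation of each of the 4 p300 samples (6.81% to 6.86% at PU.1-bound regions). Location is a property of the genome with no replicates, so no test was made.

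**Figure D1:**
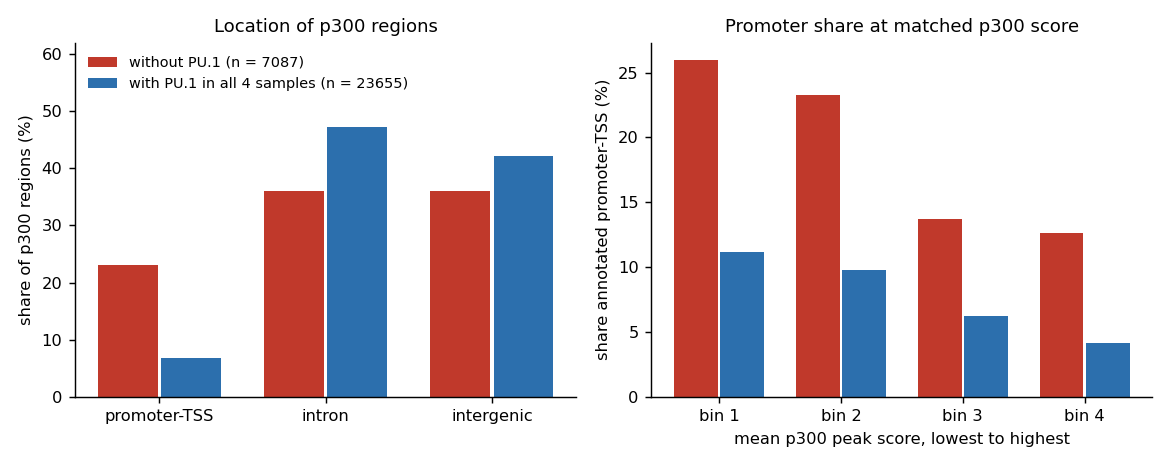
Left, share of p300 regions in each location class (y axis, %) for the 7087 regions without PU.1 (red) and the 23655 with PU.1 in all 4 samples (blue). Right, share annotated promoter-TSS (y axis, %) in each bin of mean p300 score. The red bar is higher than the blue one in all 4 bins, from 26.0% against 11.2% to 12.6% against 4.18%.

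The promoters without PU.1 were rich in CpG and SP/KLF letters, and the other regions more often held AP-1 letters. Motifs were searched as exact letters on both strands in the central 200 bp of each region. At promoters without PU.1 the median GC content was 62% against 52.5% at PU.1-bound promoters, and 78.5% against 31.1% had at least 10 CpG dinucleotides. GGGCGG, the core of SP/KLF sites, was found in 47.4% of promoters without PU.1, 24.2% of PU.1-bound promoters and 36.7% of all p300-bound promoters. The ETS letters CCGGAAGT were found in 8.69% against 3.48% (7.01% of all), the NRF1 letters GCGCATGC in 4.77% against 1.49% (3.17%), the E-box CACGTG in 11.3% against 5.28% (8.19%), the YY1 letters AANATGGCG in 4.1% against 1.61% (2.98%) and the CRE TGACGTCA in 3.3% against 1.37% (2.41%). CCAAT, the NFY box, was found in 23.8% against 21.2% (22.9%). All of these letters except CCAAT hold a CpG, and the windows themselves were rich in CpG. Their mean count was 14.7 at promoters without PU.1 against 7.42 at PU.1-bound promoters. The part of base composition in the motif differences was not tested.

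Outside promoters, 1690 of 5453 regions without PU.1 (31%) held the AP-1 letters TGANTCA, against 16.4% of PU.1-bound regions and 20.3% of all p300 regions there. The share rose with the p300 score, from 27.6% in the lowest bin to 43.1% in the highest, against 10.1% and 19.9% at PU.1-bound regions. The antioxidant response element TGACNNNGC, which NRF2 and its small Maf partners bind, was found in 15.8% against 9.64% (11.2% of all). It occurred with AP-1 in 375 regions, and in 223 of these both were read from one shared site. The C/EBP letters TTGCNNAA were found in 16.6% against 14.7% (15.3%), RUNX letters TGTGGTT in 10.1% against 9.2% (9.57%), GGGCGG in 10.7% against 4.05% (5.7%) and CCAAT in 19.9% against 20.4% (20.2%). The PU.1 letters GAGGAAGT were found in 3.52% against 15.2% (11.7%), and the regions were selected on PU.1 binding. The palindromic STAT6 site with a spacer of 4 bases was found in 4.77% against 7.37% (7.0%), the IRF site in 3.41% against 5.75% (5.06%), the NF-κB site in 2.42% against 1.5% (1.76%) and the CTCF core in 4.42% against 3.29% (3.58%). At promoters, AP-1 letters were found in 5.57% against 6.89% (6.17%), C/EBP letters in 6.49% against 11.1% (8.71%), PU.1 letters in 1.16% against 10.4% (5.07%), the STAT6 site in 3.0% against 6.77% (4.74%), RUNX letters in 2.94% against 4.35% (3.58%) and the antioxidant element in 10.5% against 9.88% (10.3%). The IRF site was found at 2.14% of promoters without PU.1, 6.02% of PU.1-bound promoters and 3.79% of all, the NF-κB site at 1.53%, 2.17% and 1.66%, and the CTCF core at 4.96%, 4.04% and 4.53%. A match is a description of letters, not of a bound factor.

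**Figure D2:**
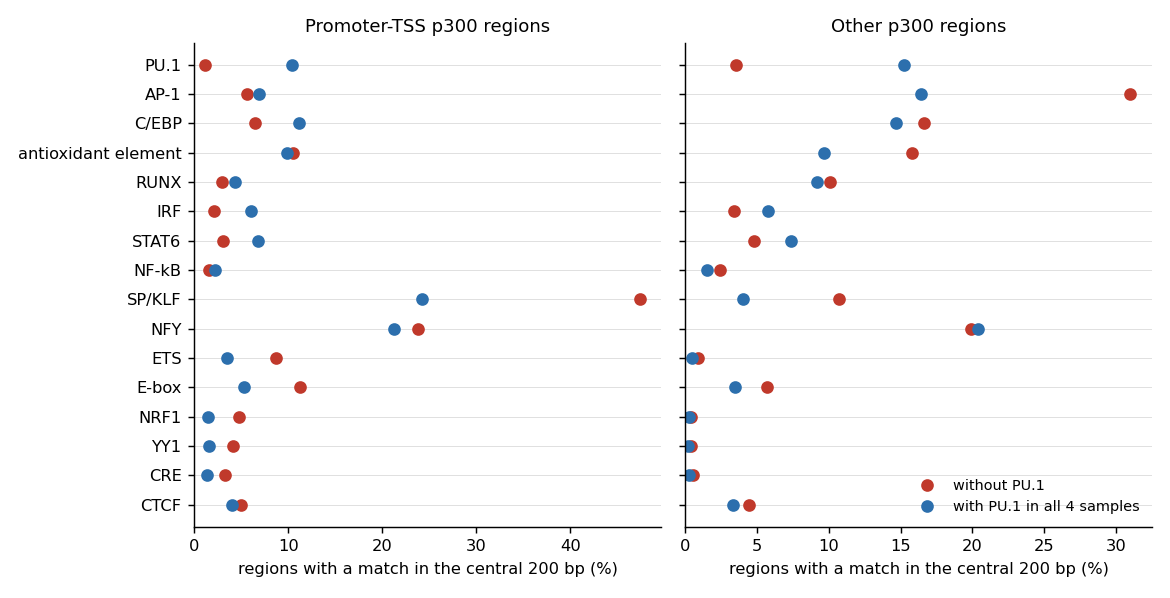
Share of p300 regions with a motif match in the central 200 bp (x axis, %) at promoter-TSS regions (left) and other regions (right), without PU.1 (red) and with PU.1 in all 4 samples (blue). At promoters the widest gap is that of SP/KLF (47.4% against 24.2%), and elsewhere those of AP-1 (31% against 16.4%) and PU.1 (3.52% against 15.2%).

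The 10 strongest p300 promoters without PU.1 belonged to genes of varied function. The mean p300 score was 128.9 at Ddit3 (chr10:127290005-127291408), which encodes the stress-induced transcription factor CHOP. It was 111.7 at Hmgcs1 and 77.29 at Cyp51, both enzymes of cholesterol synthesis. Tsc1, an inhibitor of mTORC1, had 89.86, the cyclin gene Ccnl1 89.0, Itgb8 83.81, the endosomal protein gene Plekhf1 82.56, the antioxidant enzyme gene Srxn1 81.18, the chromatin complex subunit gene Wdr5 78.35 and the zinc finger gene Zfp655 76.09. At Hmgcs1 the 4 p300 scores were 51.89 and 119.88 untreated and 132.73 and 142.16 with IL-4.

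Outside promoters the highest means were 160.0 at a region 80 kb upstream of Zmiz1, 158.0 at Hspb7, 154.8 near Zfp407, 136.9 near Tmem178, 133.2 near Anpep, 126.6 near Nenf, 124.6 near Mrps18a, 123.0 near Aggf1, 122.5 near BC022687 and 119.4 near Gm8883. H3K27Ac scores, in normalized tags, differed widely among them. At Hspb7 they were 465.4 and 454.9 untreated and 343.7 and 374.6 with IL-4. The region near Nenf, 34778 bp from the TSS, had no H3K27Ac, HDAC1, HDAC2 or HDAC3 peak in any of the 16 samples of these antibodies. It had p65 scores of 19.67 and 20.12 in IL-4 PT/LPS and no p65 peak in ctrl/LPS.

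The 7087 regions had 5288 nearest genes. A single region was assigned to 4053 of them, and at least 2 to 1235. The most were assigned to Zfp386 (17), 0610040F04Rik (10), Rplp1 (8) and Tpra1 (8). The share of p300 regions without PU.1 was set beside that of all p300 regions for each gene list. Of the p300 regions present in all 4 samples, 17.5% lacked PU.1 overall. The share was 9.93% for the 151 regions of macrophage identity genes, 10.4% for the 164 of IL-4 response genes, 12.1% for the 124 of inflammatory genes and 15.2% for the 197 of immediate early genes. It was 32.1% for the 112 regions of respiratory chain genes, 27% for the 74 of proteasome genes, 24.0% for the 121 of cytosolic ribosomal protein genes, 22.2% for the 589 of zinc finger genes and 20.8% for the 72 of histone genes. Of 30 regions of circadian genes 9 lacked PU.1, among them the promoters of Bhlhe40 and Per3. Of all p300 promoters, 1634 of 4638 lacked PU.1. For promoters alone the counts were 28 of 49 for the respiratory chain (57.1%) and 13 of 23 for the proteasome (56.5%), but 13 of 42 for cytosolic ribosomal protein genes (31%), 33 of 107 for zinc finger genes (30.8%) and 7 of 21 for histones (33.3%). They were 3 of 13 for macrophage identity, 0 of 8 for the IL-4 response, 2 of 15 for inflammatory, 3 of 12 for immediate early and 2 of 9 for circadian genes.

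Of the study's expression clusters, the IL-4-induced clusters A, B, C and D had 9.02%, 13.9%, 11.6% and 23.8% of their p300 regions without PU.1 and the IL-4-repressed cluster E 11.6%. These clusters were chosen by the study from RNA of the same kind of cells.

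Other antibodies were found less often at regions without PU.1, and the gap was widest for the HDACs. HDAC2 peaks overlapped 17.9% and 13.8% of regions without PU.1 in the untreated samples and 22.5% and 11.1% after IL-4, and 60.2% to 74.2% of PU.1-bound regions. The mean difference was -50.7 percentage points. For HDAC1 the shares were 33.5% and 29.7% untreated and 24.2% and 24.0% after IL-4, and the mean difference was -34.7 points. HDAC3 peaks were found at 3.51% to 5.55% of regions without PU.1 and 30.3% to 45.6% of PU.1-bound regions, a mean difference of -35.1 points. All 3 HDACs had a peak in both untreated samples at 0.931% of regions without PU.1 and 22.0% of PU.1-bound regions. In every one of the 12 HDAC samples the share was lower without PU.1, and the groups did not overlap. With 4 samples per antibody, the exact sign-flip permutation test (two-sided) cannot go below p = 0.125, which is the value for each HDAC and for H3K27Ac (adjusted p = 0.125 over 7 antibodies).

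The HDAC gap was also measured within bins of p300 score, which do not match scores exactly. The highest bin ran from 62.7 to 306.9, and no region without PU.1 exceeded 160. In the highest bin of p300 score HDAC2 was found at 39.2% of regions without PU.1 against 91.6%, HDAC1 at 38% against 87.1% and HDAC3 at 27.5% against 74.4%. That bin held only 183 of the 7087 regions. The lowest 2 bins held 3733 and 2142 of them, and there the gaps were smaller. In the lowest bin the HDAC1 shares were 26.9% and 26.7%, a difference of 0.225 points in the other direction, and the differences were -13.4 points for HDAC2 and -1.77 for HDAC3. In the next bin they were -12.3 points for HDAC1, -26.6 for HDAC2 and -5.21 for HDAC3. Outside promoters the differences in the lowest bin were -9.3 points for HDAC1, -17.3 for HDAC2 and -1.65 for HDAC3.

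H3K27Ac peaks, which all have the same width, overlapped 51.6% and 51.1% of regions without PU.1 in the untreated samples and 45.5% and 46.1% after 1 hr of IL-4, against 58.3% to 60.6% of PU.1-bound regions, a mean difference of -11.0 points. Within bins of p300 score the difference was 9.35, 4.01, -2.07 and 2.83 points from the lowest to the highest. Outside promoters it was -0.487, -4.53, -4.81 and -0.222 points in the same bins. The direction also differed by location. At promoters H3K27Ac was more frequent without PU.1 (mean 87.1% against 78.0%), and outside promoters less frequent (37.0% against 58.2%). Outside promoters the share without PU.1 was 40.7% and 40.2% untreated and 33.2% and 34% after IL-4, and both IL-4 samples lay below both untreated samples. The exact permutation test of 2 samples against 2 cannot go below p = 0.333.

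The RNAPII forms and p65 had 12, 12 and 8 samples, which were 2 replicates of each treatment. For p65 the mean differences were -18.6 points in ctrl/ctrl, -18.6 in IL-4 PT/ctrl, -25.9 in ctrl/LPS and -16.8 in IL-4 PT/LPS. The SD between the replicates was at most 0.35. The test counts all samples as independent, so its p-values are too small as a measure over treatments, and no test over treatments was made. RNAPII-pS5 was found at a mean of 28.8% of regions without PU.1 and 44.6% of PU.1-bound regions, a difference of -15.8 points that was negative in 12 of 12 samples (exact sign-flip permutation p = 0.000488, adjusted p = 0.00171). RNAPII-pS2 was found at 27.4% against 44.2%, a difference of -16.9 points in 12 of 12 samples (exact permutation p = 0.000488, adjusted p = 0.00171). p65 was found at 23.2% against 43.1%, a difference of -20.0 points in 8 of 8 samples (exact permutation p = 0.00781, adjusted p = 0.0182). These differences moved with the p300 score. In the lowest bin of score they were 6.32, 3.87 and 2.38 points in the other direction, and in the highest -14.7, -15.0 and -14.2 points. The difference for RNAPII-pS5 at promoters was -5.25 points (adjusted p = 0.0546, exact permutation).

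**Figure D3:**
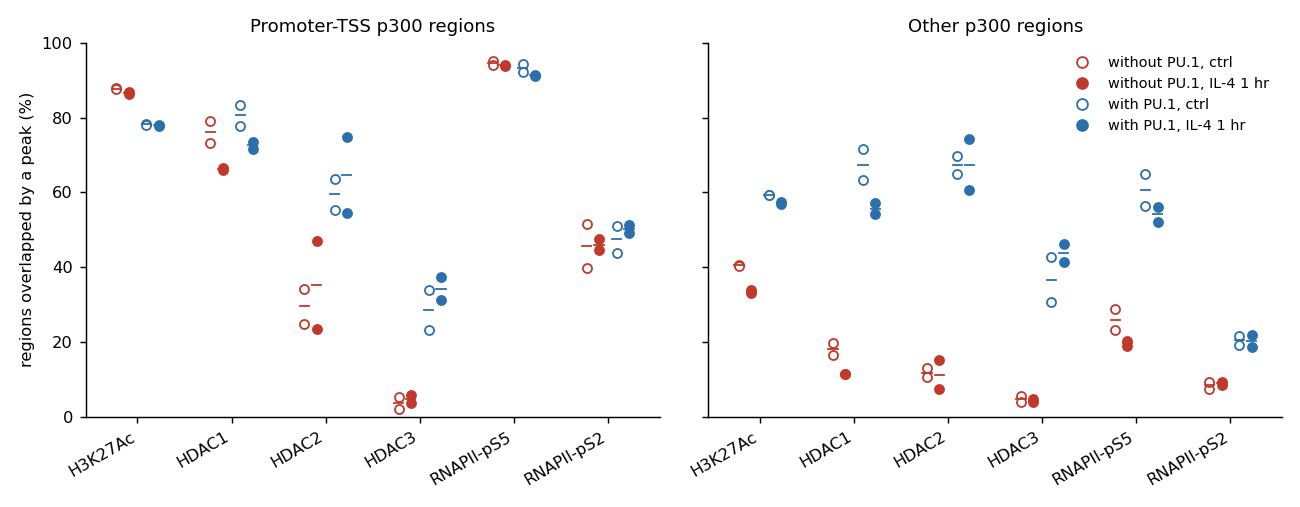
Share of p300 regions overlapped by a peak of each antibody (y axis, %) in the 1 hr experiment, at promoter-TSS regions (left) and other regions (right). Each point is 1 sample and each bar the mean of 2; red is without PU.1, blue with PU.1 in all 4 samples, open points untreated, filled points 1 hr IL-4. The HDAC2 and HDAC3 points without PU.1 lie below those with PU.1 in both panels.

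Promoters and other regions without PU.1 differed in what else was found there. H3K27Ac and RNAPII-pS5 both had a peak in both untreated samples at 84.3% of the promoters, against 15.4% of other regions. None of H3K27Ac, the HDACs, RNAPII-pS5 and RNAPII-pS2 had a peak in both untreated samples at 3058 regions (43.1%), against 16.1% of PU.1-bound regions. That was 55.1% of the regions outside promoters and 3.24% of the promoters. No peak of the 7 antibodies in any sample of either experiment was listed at 848 regions (12.0%), against 1.82% of PU.1-bound regions.

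Score changes with IL-4 for 1 hr were then compared region by region. For each region the strongest overlapping peak gave the score, and its log2 was fitted with limma over all merged p300 regions with a peak in at least 2 samples of the antibody, and a region was called at an adjusted p of at most 0.05. H3K27Ac could be fitted at 3650 regions without PU.1. Of these, 485 (13.3%) were called higher and 585 (16%) lower with IL-4, where 19.6% and 22.4% of all 30762 fitted regions were called higher and lower. At promoters 272 were higher and 66 lower of 1441 (18.9% and 4.58%), and elsewhere 213 were higher and 519 lower of 2209 (9.64% and 23.5%). PU.1-bound regions were split in the same direction, with 22.7% higher and 15.3% lower at promoters and 20% and 32% elsewhere. No H3K27Ac peak overlapped the region in either sample of the lower group for 67 of the 485 and 183 of the 585. When a peak in every sample was required, the calls were 658 higher and 544 lower, the reverse of the order above.

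Among the 10 promoters without PU.1 with the highest mean p300 score, 2 held a STAT6 match. That mean includes the IL-4 samples. At Plekhf1 the p300 scores were 5.36 and 23.65 untreated and 142.02 and 159.23 with IL-4. At Itgb8 they were 13.68 and 43.3, then 135.57 and 142.7. Both were thus chosen largely through their IL-4 samples, and their other scores are given as a description. At both, the H3K27Ac scores of the IL-4 samples lay above those of the untreated samples. At Plekhf1 (chr7:38227708-38228424) the H3K27Ac scores were 20.9 and 23.1 untreated and 97.0 and 93.4 with IL-4. At Itgb8 (chr12:119238476-119239669) they were 16.9 and 12.8 untreated and 26.8 and 28.1 with IL-4. The RNAPII-pS5 scores at Plekhf1 were 29.2 and 18.9 untreated and 76.9 and 77.6 with IL-4 (adjusted p = 0.0734), and at Itgb8 4.76 and 2.71, then 20.3 and 20.1 (adjusted p = 0.105), and neither was called. Of all regions without PU.1 with a STAT6 match, 41 were called higher and 13 lower for H3K27Ac of 140 fitted (29.3% and 9.29%). Of those without a match 444 and 572 of 3510 were (12.6% and 16.3%). Of all fitted p300 regions, 19.6% were called higher and 22.4% lower. Promoters and other regions were pooled in these counts. No test was made of the difference between regions with and without a match.

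H3K27Ac calls at regions of basic cell function genes are set beside those of all regions without PU.1, of which 13.3% were called higher and 16% lower. The lists hold promoters and other regions in unequal parts. Of promoters without PU.1, 18.9% were called higher and 4.58% lower, and of other regions 9.64% and 23.5%. Of 17 fitted regions of cytosolic ribosomal protein genes, 11 were called higher and 1 lower. The scores at the Rpl5 promoter were 122 and 118 untreated and 180 and 177 with IL-4 (log2 difference 0.63 ± 0.044 SE, adjusted p = 0.00306). At the Rpl37 promoter they were 168 and 169, then 212 and 212 (0.39 ± 0.036, adjusted p = 0.00532). The 1 lower region, 244636 bp from Rplp1, had 25.8 and 20.6, then a peak of 11.1 in 1 sample. Of 18 proteasome regions, 5 were called higher and 0 lower, and of 32 respiratory chain regions 8 were higher and 2 lower. Of 74 zinc finger regions 11 were higher and 10 lower, of 8 histone regions 2 and 1, and of 3 circadian regions 1 and 1. The Psmd7 promoter had 105 and 94.7, then 135 and 119, and the Atp5e promoter 119 and 107, then 146 and 137.

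Near IL-4 response genes 3 of 6 fitted regions were called higher for H3K27Ac and 1 lower, near inflammatory genes 2 and 0 of 3, near macrophage identity genes 0 and 1 of 5, and near immediate early genes 0 and 3 of 11. These small counts stand beside 13.3% higher and 16% lower of all fitted regions without PU.1, and 19.6% and 22.4% of all fitted p300 regions. A region 11 kb upstream of Pparg, the nuclear receptor of alternative activation, had no H3K27Ac peak untreated and 41.7 and 39.6 with IL-4. An intron of Flt1, a VEGF receptor, had none, then 30.5 and 32.6. Both regions entered the fit only through the IL-4 samples, and no test is given for them. The promoter of Socs3, an inhibitor of cytokine signaling, had 39.3 and 29.7, then 71.9 and 67.3 (log2 difference 1.08 ± 0.17 SE, adjusted p = 0.0162). Scores fell at a region upstream of Lyz1 (lysozyme), from 98.8 and 97.2 to 49.3 and 49.3 (-0.94 ± 0.059, adjusted p = 0.0024), and at -1562 bp from the immediate early gene Klf10, from 314 and 298 to 193 and 197 (-0.60 ± 0.040, adjusted p = 0.00273). Among regions of the study's clusters, 9 were called higher and 60 lower of 169 in the IL-4-repressed cluster E, 18 and 4 of 42 in cluster B, 28 and 10 of 73 in cluster C, 33 and 27 of 175 in cluster D, and 1 and 1 of 4 in cluster A. The shares beside which these counts stand are again 13.3% and 16% of all fitted regions without PU.1. Of the 365 cluster E regions without PU.1, only 48 were promoters. Outside promoters 9.64% of regions without PU.1 were called higher and 23.5% lower, and 20% and 32% of PU.1-bound regions. The median log2 difference was -0.31 in cluster E and 0.30 in cluster B.

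The regions with the smallest H3K27Ac p-values all lacked an overlapping peak in one group. A region in an intron of Cerk had none untreated and 705 and 746 with IL-4, and the nearest untreated H3K27Ac peaks lay 22025 and 22042 bp away. Regions at Rnh1 and near Tbc1d22a had none, then 385 and 400, and 476 and 486, with the nearest untreated peaks at 20792 bp and more and at 9371 bp and more. Regions of Slc24a6 and Hdgf had 284 and 277, and 265 and 264, then none, with the nearest IL-4 peaks at 4128 and 8031 bp. For the other 5 a peak lay within 35 to 1496 bp in the samples without an overlapping one, so that no loss or gain of acetylation is shown there. At Rassf2 (733 and 733, then none) the IL-4 samples had peaks of 563.9 and 580.4 at 35 and 47 bp from the region. At Spag7 the untreated peaks lay 317 and 343 bp away, at Ado the IL-4 peaks 312 and 269 bp, at Asap1 515 and 503 bp, and near Ptp4a2 the untreated peaks 1473 and 1496 bp.

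No HDAC or RNAPII change with 1 hr of IL-4 passed the threshold of limma at any region without PU.1. At an unadjusted p of at most 0.05, HDAC1 was higher at 47 and lower at 242 of 2137 fitted regions (4.58% and 10.9% of all regions). HDAC2 was higher at 97 and lower at 102 of 1268 (8.4% and 5.63% of all). HDAC3 was higher at 27 and lower at 41 of 304 (16.2% and 5.17%), RNAPII-pS5 at 250 and 250 of 2850 (10.5% and 10.3%), and RNAPII-pS2 at 126 and 75 of 1324 (11.4% and 12%). With 1 untreated sample left out and the same regions fitted, HDAC1 had 211 and 217 calls and RNAPII-pS5 170 in each case, so that the absence of calls depends on both untreated samples. The lower RNAPII-pS5 difference with the smallest p-value was at the promoter of the cyclin gene Ccng2, from 99.5 and 54.9 to 9.96 and 7.18 (adjusted p = 0.0734). At the promoter of Wdr62 the HDAC1 scores were 25 and 25 untreated and 4.96 and 4.77 with IL-4 (adjusted p = 0.174).

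In the LPS experiment p65 was listed at more of the regions without PU.1 when IL-4 had been given before LPS. p65 peaks overlapped 9.2% and 8.95% of the 7087 regions in ctrl/ctrl, 12.6% and 11.2% in IL-4 PT/ctrl, 27.9% and 28.7% in ctrl/LPS, and 42.1% and 44.5% in IL-4 PT/LPS. Both IL-4 PT/LPS samples lay above both ctrl/LPS samples. At PU.1-bound regions the shares were 53.8% and 54.6% in ctrl/LPS and 59.1% and 61.1% in IL-4 PT/LPS. Over all the genome the samples had 26305 and 26820 p65 peaks in ctrl/LPS and 36738 and 38955 in IL-4 PT/LPS, and the part of this in the shares was not tested. With 2 samples a group, the exact permutation test cannot go below p = 0.333.

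The share was higher with IL-4 PT/LPS in each bin of p300 score. Outside promoters the mean p65 share without PU.1 went from 18.6% to 30.9% in the lowest bin of p300 score, from 30.3% to 48.5% and from 42.3% to 66.0% in the middle bins, and from 62.8% to 81.9% in the highest. At PU.1-bound regions it went from 17.6% to 22.7%, from 30.8% to 37.7%, from 49.7% to 57.1% and from 79.4% to 84.3%. A p65 peak was listed in both IL-4 PT/LPS samples and neither ctrl/LPS sample at 710 regions without PU.1, and the reverse at 61 (0.861%). At PU.1-bound regions these were 1130 of 23655 (4.78%) and 394 (1.67%).

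Taken over all locations, RNAPII under LPS was also listed at more regions without PU.1 after IL-4 pretreatment, and not at more PU.1-bound regions. This contrast did not hold at promoters. There the mean RNAPII-pS5 share went from 34.5% to 57.0% without PU.1 and from 50.6% to 60.2% with PU.1. The RNAPII-pS2 share at promoters without PU.1 was 52.3%, then 52.2%. Outside promoters, RNAPII-pS5 at PU.1-bound regions went from 9.67% to 11.3% in the lowest bin of p300 score and from 13.2% to 14.1% in the next. RNAPII-pS5 was found at 16.1% and 17.1% of regions without PU.1 in ctrl/LPS and 27% and 27.5% in IL-4 PT/LPS, and at 31.2% and 33.0%, then 30.8% and 30.8%, of PU.1-bound regions. RNAPII-pS2 was found at 31.1% and 32.4%, then 39.1% and 37.8%, without PU.1, and at 55.1% and 55.4%, then 49.7% and 49.4%, with PU.1. The number of peaks was 14476 and 15349, then 17826 and 18207, for RNAPII-pS5, and 26873 and 27175, then 29235 and 28737, for RNAPII-pS2. The size of the changes differed by bin of p300 score. Outside promoters the lowest bin held 2763 regions without PU.1. Their mean RNAPII-pS2 share was 12.6% in ctrl/ctrl, 14.9% in IL-4 PT/ctrl, 17.5% in ctrl/LPS and 23.7% in IL-4 PT/LPS. With PU.1 it was 21.0%, 14.5%, 19.3% and 17.1%. In the third bin, with 888 regions without PU.1, the shares in the same order were 19%, 47.0%, 39.5% and 53.9% without PU.1, and 59.4%, 48.6%, 50.4% and 43.0% with PU.1.

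Regions with an AP-1 match outside promoters had few p65 peaks in ctrl/ctrl and more than other regions under LPS. p65 peaks were listed at 2.43% and 2.43% of these 1690 regions in ctrl/ctrl, 5.27% and 4.67% in IL-4 PT/ctrl, 31.5% and 33.4% in ctrl/LPS, and 48.3% and 52.1% in IL-4 PT/LPS. At the 3763 regions without an AP-1 match they were listed at 8.82% and 8.32%, 12.2% and 10.7%, 24.9% and 25%, and 39.7% and 41.0%. AP-1-matched regions were thus below the others in both ctrl/ctrl samples and above them in all 4 LPS samples. The same order was found at PU.1-bound regions, with p65 at 22.5% and 22.1% of AP-1-matched and 28.4% and 28.2% of other regions in ctrl/ctrl, and at 71.8% and 71.9% against 49.6% and 50.8% in ctrl/LPS. RNAPII-pS2 at AP-1-matched regions went from 4.2% and 4.67% in ctrl/ctrl to 21.2% and 22.5% in IL-4 PT/ctrl, 28.2% and 29.9% in ctrl/LPS, and 41.7% and 39.8% in IL-4 PT/LPS. In the 1 hr experiment these regions had H3K27Ac at 38.3% and 36.9% untreated and 27.8% and 29.9% with IL-4, HDAC1 at 10% and 7.93%, then 3.37% and 4.02%, and RNAPII-pS5 at 18.3% and 14.0%, then 9.11% and 8.34%. For all 3, both IL-4 samples lay below both untreated samples. That was also so at regions without an AP-1 match, where H3K27Ac was found at 41.8% and 41.6%, then 35.6% and 35.8%, HDAC1 at 24.2% and 20.5%, then 15.1% and 14.8%, and RNAPII-pS5 at 33.5% and 27.1%, then 25.5% and 23.8%.

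**Figure D4:**
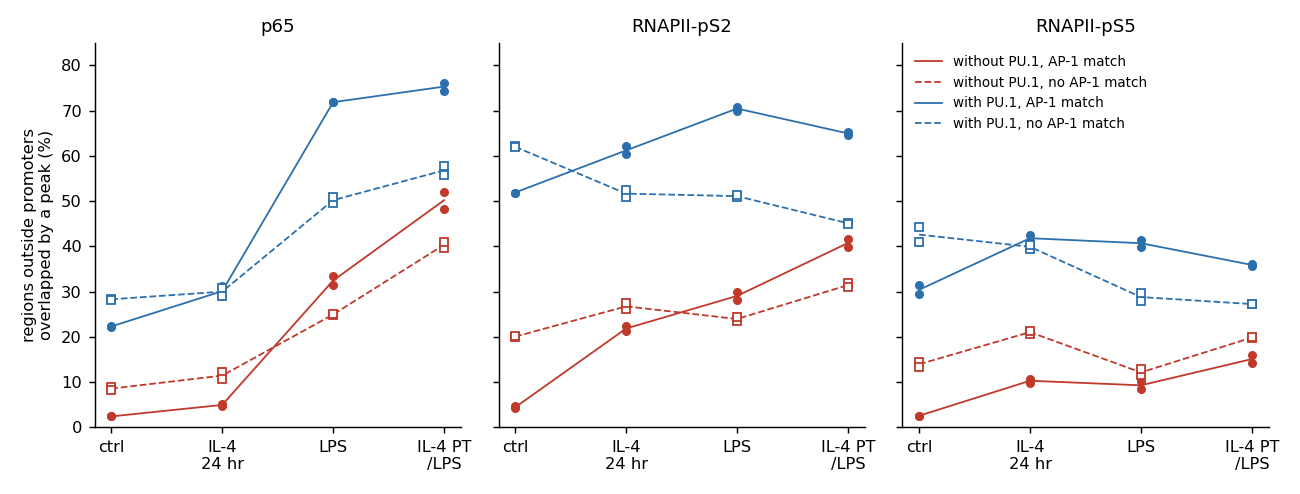
Share of p300 regions outside promoters overlapped by a p65, RNAPII-pS2 or RNAPII-pS5 peak (y axis, %) in the 4 conditions of the LPS experiment. Each point is 1 sample and lines join the means of 2; red is without PU.1, blue with PU.1 in all 4 samples, solid lines with an AP-1 match and dashed lines without. p65 at AP-1-matched regions without PU.1 goes from 2.43% in ctrl/ctrl to 48.3% and 52.1% in IL-4 PT/LPS.

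By limma, 805 of 3167 regions without PU.1 (25.4%) were called higher for p65 with LPS than without treatment and 116 (3.66%) lower, where 28.4% and 4.37% of all fitted regions were. Of the 805, 755 had no p65 peak in ctrl/ctrl. With a p65 peak required in all 8 samples the order turned, to 35 higher and 104 lower, and without centring the calls were 1014 higher and 21 lower. IL-4 PT/LPS against ctrl/LPS gave 757 higher (23.9%) and 87 lower (2.75%), where 15.2% and 3.98% of all fitted regions and 7.06% and 3.96% of PU.1-bound regions were called. IL-4 PT/ctrl against ctrl/ctrl gave 139 higher and 63 lower (4.53% and 2.97% of all). The comparisons share samples and are not independent. Among the 757, 529 had no p65 peak in either ctrl/LPS sample, and such a region enters the fit only through the group where p65 was listed. When a peak in every sample was required, 2 were called higher and 3 lower. Leaving out the first or the second IL-4 PT/LPS sample gave 84 and 90 calls, since fewer regions then had 2 peaks, and at least 664 when the fitted regions were kept.

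For RNAPII-pS5, LPS gave 278 higher and 501 lower of 2608 (11.9% and 19.6% of all), IL-4 PT/LPS against ctrl/LPS 446 higher and 101 lower (8.76% and 5.38% of all), and IL-4 PT/ctrl against ctrl/ctrl 294 higher and 65 lower (9.16% and 6.84% of all). For RNAPII-pS2 they were 715 and 511 of 3666 with LPS (17.8% and 16.2% of all), 547 and 126 for IL-4 PT/LPS against ctrl/LPS (8.23% and 5.56% of all), and 553 and 263 for IL-4 PT/ctrl against ctrl/ctrl (11.5% and 11.5% of all). Most regions called higher had no peak in the lower group, namely 626 of the 715, 413 of the 547 and 488 of the 553 for RNAPII-pS2, and 200 of the 278, 379 of the 446 and 262 of the 294 for RNAPII-pS5. With a peak required in every sample, RNAPII-pS2 with LPS turned to 39 higher and 135 lower. The RNAPII-pS2 calls with LPS were split by location. At promoters 52 were higher and 303 lower of 1289 (4.03% and 23.5%), near the 5.46% and 21.4% of PU.1-bound promoters. Elsewhere 663 were higher and 208 lower of 2377 (27.9% and 8.75%), against 16.2% and 18.1% of PU.1-bound regions there. Of the regions called higher for IL-4 PT/LPS against ctrl/LPS, 241 were called for both p65 and RNAPII-pS2 (31.8% of the p65 calls and 44.1% of the RNAPII-pS2 calls), and 113 for both p65 and RNAPII-pS5 (14.9% and 25.3%).

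**Figure D5:**
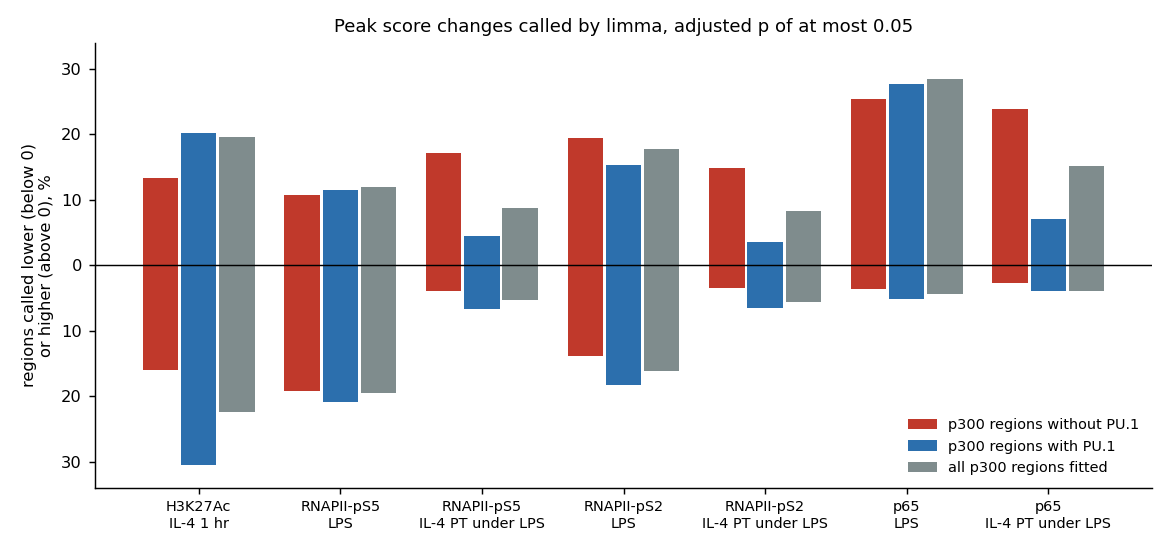
Share of fitted regions called higher (bars above 0) or lower (bars below 0) by limma at an adjusted p of at most 0.05 (y axis, %), for H3K27Ac with 1 hr IL-4 and for RNAPII-pS5, RNAPII-pS2 and p65 with LPS or with IL-4 pretreatment under LPS. Red is without PU.1, blue with PU.1 in all 4 samples, grey all p300 regions fitted. For p65 with IL-4 pretreatment under LPS the bars above 0 are 23.9%, 7.06% and 15.2%.

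Among the named regions with the smallest p-values for LPS, 2 lay near genes of NF-κB and cytokine signaling. A region 9.7 kb upstream of Il12b (chr11:44390072-44390629), which encodes a subunit of IL-12, had no p65 peak in ctrl/ctrl or IL-4 PT/ctrl, p65 scores of 108 and 104 in ctrl/LPS, and 69.5 and 89.2 in IL-4 PT/LPS. Its RNAPII-pS5 scores were 32.1 and 36.1 in ctrl/LPS and 16 and 16.4 in IL-4 PT/LPS (log2 difference -1.26 ± 0.23 SE, adjusted p = 0.0177). A region 62.6 kb upstream of Tnfaip3 (chr10:19077643-19078527), an inhibitor of NF-κB signaling, had p65 scores of 5.05 and 4.41 in ctrl/ctrl, none in IL-4 PT/ctrl, 98.8 and 88.3 in ctrl/LPS, and 99.1 and 100.0 in IL-4 PT/LPS. Its RNAPII-pS2 scores were 56.9 and 57.4 in ctrl/LPS and none in ctrl/ctrl. At the promoter of Rcan1, a calcineurin inhibitor, RNAPII-pS5 rose from 7.57 and 7.36 in ctrl/ctrl to 49.5 and 48.5 in ctrl/LPS (2.90 ± 0.18, adjusted p = 0.000971), and upstream of Nsd1 from 7.09 and 4.29 to 82.2 and 88.6 (4.14 ± 0.26, adjusted p = 0.000971). p65 also appeared in both ctrl/LPS samples at Sept11 (65.2 and 80.6) and in an intron of the hexokinase gene Hk2 (60.2 and 62.2), with none in ctrl/ctrl.

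At other regions RNAPII was listed in ctrl/ctrl and not in ctrl/LPS. Over all the genome the samples had 20803 and 19279 RNAPII-pS5 peaks in ctrl/ctrl and 14476 and 15349 in ctrl/LPS. The part of this in the absent peaks and in the lower calls with LPS was not tested. In an intron of Batf, an AP-1 family gene, RNAPII-pS5 scores were 52.9 and 63.5 in ctrl/ctrl, none in ctrl/LPS, and 4.65 and 3.89 in IL-4 PT/LPS. The Klf7 promoter had RNAPII-pS5 scores of 36.4 and 36 in ctrl/ctrl and none in any LPS sample. At some promoters RNAPII-pS5 was lower in ctrl/LPS than in both other groups. At Psmc3ip, which is in the proteasome list by its symbol and is known to act in recombination, RNAPII-pS5 scores were 36.9 and 27.2 in ctrl/ctrl, 4.08 and 5.33 in ctrl/LPS, and 16.6 and 18.0 in IL-4 PT/LPS. At the Psmd2 promoter they were 24.8 and 23.5, 4.88 and 7.62, and 28.9 and 15.3. Of 15 fitted regions of the proteasome list, 0 were higher and 3 lower with LPS, and 4 were higher and 0 lower for IL-4 PT/LPS against ctrl/LPS. The share lower with LPS lay near those of all fitted regions (19.6%) and of promoters without PU.1 (27.6%), and the share higher with IL-4 PT/LPS stood beside 15% of those promoters. p65 fell with LPS at a promoter of Rabgap1, from 54.9 and 52.2 to 31.3 and 33.3 (-1.79 ± 0.14, adjusted p = 0.000661). Without centring that difference was -0.73. The p65 call at a region near Erdr1 on the Y chromosome rested on centring, since its scores were 80.8 and 82.0 in ctrl/ctrl and 86.5 and 84.6 in ctrl/LPS.

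The regions named next, apart from Flrt3, had p65 peaks in both samples of one LPS group and in neither of the other. p65 was listed in IL-4 PT/LPS and not in ctrl/LPS in introns of Thrb (51.5 and 50.1), Dnmbp (25.2 and 25.6), Hs2st1 (23.7 and 26.1) and Runx2 (21.5 and 23.0), and at a region 258545 bp from Kcnj2 (27.3 and 34.2). Outside IL-4 PT/LPS, Thrb alone of these 5 had p65 peaks, in IL-4 PT/ctrl (6.93 and 5.81), so that these regions entered the fit through IL-4-treated samples and no test is given for them. Thrb encodes a thyroid hormone receptor and Runx2 a RUNX-family transcription factor. In an intron of Flrt3 p65 scores were none in ctrl/ctrl, 21.8 and 25.7 in IL-4 PT/ctrl, 50.8 and 47.3 in ctrl/LPS, and 148 and 141 in IL-4 PT/LPS. The opposite pattern, with p65 in ctrl/LPS and none in IL-4 PT/LPS, was seen near Map3k7cl (16.2 and 18.5) and Ptgdr (13.8 and 12.6), in introns of Atxn1 (8.13 and 8.51) and Clic4 (8.35 and 7.48), and at the Rbks promoter (9.65 and 11.2). The windows printed above for Dnmbp, Hs2st1, Map3k7cl and Ptgdr were picked for an AP-1 match. Their matches therefore say nothing about either pattern.

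RNAPII-pS2 was also listed with IL-4 PT/LPS and not with ctrl/LPS at some regions. At the Runx2 region RNAPII-pS2 scores were none in ctrl/ctrl, 9.54 and 10.5 in IL-4 PT/ctrl, none in ctrl/LPS, and 48.1 and 44.0 in IL-4 PT/LPS. A region 701353 bp from Inhba, an activin subunit gene, had RNAPII-pS2 scores of 36.5 and 42.0 in IL-4 PT/ctrl and 51.6 and 42.7 in IL-4 PT/LPS, and none without IL-4. Near Jarid2 they were 49.5 and 42.4 in IL-4 PT/LPS alone, and in an intron of Ncf1 14.0 and 18.4 in IL-4 PT/ctrl and 44.1 and 39.0 in IL-4 PT/LPS. At the region 97869 bp from Ptgs2, which encodes COX-2, RNAPII-pS2 scores were 26.6 and 26.2 in ctrl/LPS and 67.6 and 63.7 in IL-4 PT/LPS (1.39 ± 0.22, adjusted p = 0.0106). At the promoter of the antiproliferative gene Btg1, RNAPII-pS5 scores of 23.3 and 31.8 and RNAPII-pS2 scores of 29.8 and 31.1 in ctrl/LPS contrasted with none in IL-4 PT/LPS.

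After IL-4 for 24 hr without LPS, RNAPII was listed at further regions. RNAPII-pS5 was listed at 18.8 and 20.0 at the promoter of Atp6v0d2, a subunit of the vacuolar proton pump, and at 17.4 and 19.2 at the Creg2 promoter, with none in ctrl/ctrl. RNAPII-pS2 was listed at 36.7 and 57.4 at a region -37177 bp from Nfil3, a bZIP transcription factor gene, and at 28.7 and 31.4 near Ptgs1, the gene of COX-1. It was no longer listed in IL-4 PT/ctrl at the Pcbp1 promoter (14.6 and 15.2 in ctrl/ctrl) and in the 5' UTR of Jund (21.1 and 22.5). p65, which in the absence of LPS was found at few regions, had 17.3 and 21.2 in an intron of Ahrr in ctrl/ctrl and none in IL-4 PT/ctrl.

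In the study's clusters, p65 was called higher for IL-4 PT/LPS against ctrl/LPS at 73 and lower at 3 of 179 regions of cluster D, and at 39 and 4 of 176 regions of the IL-4-repressed cluster E. Of all fitted regions without PU.1, 23.9% were higher and 2.75% lower, and of all fitted p300 regions 15.2% and 3.98%. The shares in cluster E lay near those of all regions without PU.1. Outside promoters, where most cluster E regions lay, 29.5% of regions without PU.1 were higher and 2.75% lower. Of regions with a STAT6 match 52 were higher and 1 lower of 150, and of those without 705 and 86 of 3017. A median p65 log2 difference of 1.21 in cluster D and 0.52 in cluster E stood beside 0.95 at STAT6-matched and 0.52 at other regions without PU.1. These lists and splits were chosen with earlier results known, and no test was made of the differences between them.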

How the data were processed

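Per the labels, 56 ChIP-seq samples of mouse BMDMs fell into 28 groups of 2. The authors aligned reads to mm10, dropped peaks in blacklisted sequence and used HOMER for annotation, and the submitters' processing notes name BWA 0.7.10, SAMtools 0.1.19, HOMER 4.2 and MACS2 2.0.10. For all antibodies except H3K27Ac, the deposited MACS2 peak score is a −log10 of a p- or q-value, as inferred from its values. For H3K27Ac, the deposited score is a signal in normalized tags over HOMER peaks of fixed width. No input control was stated, and depth is unknown.

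Peaks were overlapped by at least 1 bp. Region values were the log2 of the highest overlapping score. Each sample was centred on its observed scores, and missing peaks were then set to the lowest score of the antibody. limma 3.58.1 (R 4.3.3, trend) was fitted to all merged regions with at least 2 peaks, with Benjamini-Hochberg adjustment, after a test on simulated data. Score differences against a group with no peak depend on the value given to missing peaks. Shares were compared by exact sign-flip permutation over samples with SciPy 1.17.1 under Python 3.11.15. Two-sided p-values measure the spread between these samples, and the sign-flip test counts replicates of a treatment as independent. Sequences were read from RefSeq GRCm38.p6, the same build as mm10; coordinates are 1-based, and 92.0% of 1528 promoter regions whose symbol is in RefSeq had that gene's end within 2000 bp.

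The regions, gene lists, motifs and clusters were chosen with earlier results of these data known. Named regions were the 10 promoters and 10 other regions with the highest mean p300 score, up to 5 called higher and 5 lower per antibody and comparison with the smallest adjusted p and no overlap between groups (3 where none was called), and regions of the listed genes. One named region is not reported here. Plekhf1 and Itgb8 fall under the first part. Alternatives varied the overlap, peak strength, p300 score bin, minimum of peaks, value of missing peaks, centring, threshold, replicate block and samples left out. The 24 hr IL-4 comparison, the splits by promoter, AP-1 and STAT6, the p300 score bins outside promoters, and the repeat of leaving out samples on unchanged regions were chosen after seeing the data. The nearest peaks of the named H3K27Ac regions were measured after their values were seen.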

Additional observations from a re-analysis of the deposited data

How the results depend on the processing

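The number of p300 regions without PU.1 moved with the rule. It was 20262 with a p300 peak in at least 2 samples, 19234 when PU.1 had to cover 50% of the region, 13363 with the upper 50% of PU.1 peaks and 1301 with the upper 50% of p300 peaks. Leaving out 1 sample gave 7262 to 12189, the highest without the first untreated p300 replicate. The promoter share was 28.0% within 1000 bp of a TSS, 17.6% with p300 in at least 2 samples, and 26.0%, 13.7% and 12.6% in p300 bins 1, 3 and 4, and 22.1% to 23.4% with 1 sample left out. Peak scores limit all results, because depth is unknown and an absent peak may lie just below the authors' threshold.

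The difference in occupancy, without minus with PU.1, changed sign for H3K27Ac at promoters (9.09 points) and in bins 1, 2 and 4 (9.35, 4.01 and 2.83), and for HDAC1 in bin 1 (0.225). Outside promoters it kept its sign in these bins, at -0.487, -4.53 and -0.222 for H3K27Ac and -9.3 for HDAC1. For RNAPII-pS5 it was -5.25 at promoters, 6.32, 2.62 and -7.40 in bins 1 to 3, and -1.20, -5.03 and -12.0 in these bins outside promoters. For RNAPII-pS2 it was 3.87, 2.55 and -5.74, and outside promoters -0.896, -2.36 and -8.47. For p65 it was 2.38, 3.91 and -0.822, and outside promoters 2.51, 2.75 and -2.37. The cause was not tested. With 1 sample left out the differences ran from -11.6 to -10.2 (H3K27Ac), -35.8 to -33.3 (HDAC1), -51.2 to -50.3 (HDAC2), -37.9 to -33.3 (HDAC3), -16.9 to -15.1 (RNAPII-pS5), -18.1 to -15.3 (RNAPII-pS2) and -20.5 to -19.1 (p65).

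Requiring a peak in every sample leaves fewer regions to fit. The limma calls were then 1202 for H3K27Ac (658 higher, 544 lower), 3 for HDAC1, 3 for HDAC3, and 25 and 11 for RNAPII-pS5 and RNAPII-pS2 at 1 hr. With LPS they were 155 (RNAPII-pS5), 174 (RNAPII-pS2, 39 higher and 135 lower) and 139 (p65, 35 higher and 104 lower), for IL-4 PT/LPS against ctrl/LPS 120, 53 and 5 (p65, 2 higher and 3 lower), and for IL-4 for 24 hr 33, 54 and 28. With missing peaks at 4 times the lowest score, H3K27Ac had 500 (269 higher, 231 lower). RNAPII-pS5, RNAPII-pS2 and p65 had 291, 671 and 357 with LPS, 196, 418 and 328 for IL-4 PT/LPS, and 122, 405 and 86 for 24 hr. At an unadjusted p, the 1 hr counts were 289 (HDAC1), 199 (HDAC2), 68 (HDAC3), 500 (RNAPII-pS5) and 201 (RNAPII-pS2), RNAPII-pS5 had 874 for IL-4 PT/LPS and 582 for 24 hr, RNAPII-pS2 1120 for IL-4 PT/LPS, and p65 313 for 24 hr. Without centring, p65 had 133 for 24 hr, H3K27Ac 360 higher and 654 lower, p65 with LPS 1014 higher and 21 lower, and the p65 difference at Erdr1 turned to 0.0722.

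With 1 sample left out the calls numbered 484 to 738 for H3K27Ac (more higher than lower without either untreated sample), 0 to 1, 0 to 2 and 1 to 20 for HDAC1, HDAC2 and HDAC3, and 10 to 42 and 9 to 46 for RNAPII-pS5 and RNAPII-pS2 at 1 hr. With LPS the ranges were 521 to 782 (RNAPII-pS5), 797 to 1253 (RNAPII-pS2, lowest without the second ctrl/ctrl sample) and 756 to 986 (p65). For IL-4 PT/LPS they were 299 to 545, 304 to 734 and 84 to 823, each lowest without 1 IL-4 PT/LPS sample, and for 24 hr 214 to 375, 519 to 802 and 180 to 309. When the fitted regions were kept, H3K27Ac had 442 and 428 without the first or second untreated sample and 351 and 378 without the first or second IL-4 sample. HDAC1 then had 211 and 217 without an untreated sample, HDAC2 112 without the second IL-4 sample, HDAC3 27 without either IL-4 sample, RNAPII-pS2 at 1 hr 60 to 68 (61 and 60 without an untreated sample, 68 and 63 without an IL-4 sample), RNAPII-pS5 at 1 hr 170 without either untreated sample, and p65 for 24 hr 322 without the second IL-4 PT/ctrl sample. A lone sample was assumed to vary like the others.

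Same-numbered samples did not deviate together (r from -0.0345 to 0.0596), so they share only a number. With the replicate block the calls were 723 for H3K27Ac, 2 for RNAPII-pS5 at 1 hr (Plekhf1 and Ccng2), 735, 1185 and 871 with LPS (RNAPII-pS5, RNAPII-pS2, p65), 487, 597 and 693 for IL-4 PT/LPS, and 312, 756 and 179 for 24 hr. Of 130 named differences, 2061 alternative values kept direction and side of the threshold and 98 passed it only in the alternative. Those at Ap1ar (-0.305) and Clic4 (-0.0833) missed it with missing peaks at 4 times the lowest score.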
